A study of Mus musculus with 8 samples.

Results

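The genes described here are 53 homeobox and paired-box developmental regulators outside the Hox clusters, from the Pax, Nkx, sine oculis, Irx, Dlx, Msx, Engrailed, Bar, Alx, Pitx, Otx, Prrx, Shox, Phox, Vax, Lmx, Cdx, Onecut and Hlx families. They were chosen by name, and all 53 were found by symbol among the 54418 Ensembl genes of a table of RNA counts. The RNA came from melanocyte stem cells, which supply pigment cells to each new hair. They were sorted from back skin of mice at postnatal day 21 as live, non-autofluorescent cells with a Dct-GFP signal. There were 4 Bmi1-deleted libraries (Bmi1 fl/fl with Tyrosinase-Cre, and the reporter pair Dct-rtTA and TRE-H2B-GFP) and 4 control libraries (Bmi1 fl/fl and the same reporter pair, without Cre). Mice of both groups were of mixed C57Bl-6 and 129Sv background, carried floxed Bmi1 and the reporter and were fed doxycycline, so the groups differ by the Cre as well as by the deletion. Cre was driven by the promoter of a pigment enzyme gene and the reporter by that of Dct, another gene of melanin synthesis. No label says that the 4 libraries of a group came from separate animals, and p-values then measure only the spread between these samples.

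Homeodomain and paired-domain proteins bind DNA and set the identity of tissues in the embryo, each in its own region such as the eye, limb, jaw, gut or neural tube. In cells where they are not needed, their CG-rich promoters are classic sites of Polycomb silencing, in which one complex (PRC2) methylates histone H3 and another (PRC1, of which Bmi1 is a subunit) binds and compacts the chromatin. The comparison asks which of these genes gave more RNA when Bmi1 was deleted and which stayed off.

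The libraries held 8882656 to 10368174 estimated counts. The first principal component of log2 CPM (counts scaled to equal depth), with 27.2% of the variance, parted replicates 1 and 2 of both groups from replicates 3 and 4, and the second, with 16.3%, parted the genotypes. Bmi1 had 627, 713, 626 and 607 counts in Bmi1-deleted libraries and 796, 743, 705 and 859 in control libraries. The groups did not overlap, but the adjusted p of Bmi1 by edgeR was 0.607 (log2 change −0.26, SE 0.12), and most of its whole-gene signal was still present. In the deposited TPM (a unit that divides by transcript length) it had 14.3, 19.5, 11.7 and 7.96 in Bmi1-deleted libraries and 36.4, 35.0, 24.2 and 26.1 in control libraries. Bmi1-deleted 2 was the Bmi1-deleted library closest to control by this measure. TPM is a share of each library, and 1 predicted gene, Gm23935, took 73.7% to 85.6% of it. What was left for all other genes thus varied between libraries. The median log2(TPM + 1) change of all tested genes was −0.14, so the TPM gap is not a measure of Bmi1 alone. The pigment cell markers Dct, Tyr, Tyrp1, Pmel, Mlana, Mitf, Sox10, Kit, Slc45a2 and Gpr143 summed to 4767 to 10095 CPM in Bmi1-deleted and 8799 to 14614 CPM in control libraries. A further fit took the replicate number as a block, though no label says what a number shared by the groups means. With this replicate block, 8 of these 10 markers fell and 0 rose, against 0.706% and 1.71% of all tested genes. Without it 0 passed (smallest edgeR adjusted p = 0.252). In bulk RNA, fewer cells of a type and less RNA per cell cannot be told apart. Keratinocyte markers also reached 2716 to 4747 CPM in Bmi1-deleted and 3128 to 3420 CPM in control libraries.

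The promoters of genes whose values the results turn on are shown for their CG content, a feature that the choice of genes did not use. The sequences are the 250 bases before the RefSeq start of the gene (build GRCm38.p6, minus strand for all 4, written 5′ to 3′ on the gene's strand), with CG dinucleotides in capitals. Hlx (chr1:184732494-184732743), Shox2 (chr3:66981772-66982021) and Vax1 (chr19:59170398-59170647) were higher in every Bmi1-deleted library than in any control library, and Cdx2 (chr5:147307250-147307499) had 0 counts in all 8 libraries. These 4 were picked after their counts were seen.
Hlx: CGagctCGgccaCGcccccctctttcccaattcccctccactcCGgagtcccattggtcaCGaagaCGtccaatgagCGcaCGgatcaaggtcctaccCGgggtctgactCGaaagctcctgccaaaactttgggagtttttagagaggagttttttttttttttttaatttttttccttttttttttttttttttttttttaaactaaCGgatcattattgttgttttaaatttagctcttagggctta
Shox2: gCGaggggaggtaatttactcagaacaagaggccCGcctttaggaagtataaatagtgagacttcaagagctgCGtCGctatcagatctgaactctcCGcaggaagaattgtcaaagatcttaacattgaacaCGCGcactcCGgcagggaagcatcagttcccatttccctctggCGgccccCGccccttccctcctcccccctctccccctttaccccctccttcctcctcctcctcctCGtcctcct
Vax1: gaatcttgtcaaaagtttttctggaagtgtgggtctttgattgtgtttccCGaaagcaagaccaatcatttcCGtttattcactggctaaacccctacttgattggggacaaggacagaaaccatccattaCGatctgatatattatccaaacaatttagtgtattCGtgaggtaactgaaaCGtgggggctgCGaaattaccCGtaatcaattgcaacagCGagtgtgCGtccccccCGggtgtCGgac
Cdx2: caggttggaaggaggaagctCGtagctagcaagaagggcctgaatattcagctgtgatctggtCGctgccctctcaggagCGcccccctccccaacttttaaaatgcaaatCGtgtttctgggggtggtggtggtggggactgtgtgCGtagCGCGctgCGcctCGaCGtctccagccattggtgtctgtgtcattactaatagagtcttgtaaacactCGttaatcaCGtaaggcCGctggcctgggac
The first 3 windows each held 11 CG, a number reached or passed by 35.6% of 32851 promoters in the RefSeq table, and the silent Cdx2 held 13, reached or passed by 31.5%. The table held 45 promoters of 38 of the 53 genes, with a median of 15 CG against 6 over all promoters. Onecut2 was not among the 38, so its promoter is not shown. Among them the promoters of genes with enough counts to be tested had a median of 15.5, those of low genes left untested 21, those of genes near zero 9 and those of silent genes 13. The near-zero median rests on 8 promoters of 5 genes, several of them of Otx2. The ranges of these classes overlapped, from 4 to 24 CG in tested, 7 to 40 in low, 6 to 31 in near-zero and 5 to 25 in silent genes. Genes that gave RNA and genes that gave none were thus not apart in the CG content of this window.

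**Figure D1:**
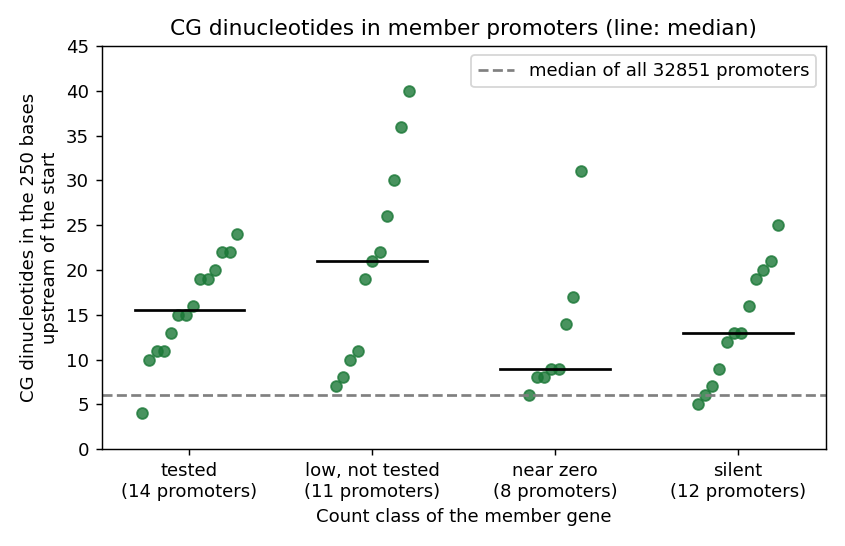
CG dinucleotides in the 250 bases upstream of the start (vertical axis) for each promoter of the members, by count class (horizontal axis); black lines are class medians and the dashed line is the median of all 32851 promoters. The class medians run from 9 to 21 and lie above the overall median of 6, and the classes overlap.

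By their counts the 53 genes fell into 4 classes. There were 11 silent genes, with at most 3 counts in every library, and 9 genes near zero, whose highest library held 4 to 9 counts. A further 14 genes reached 10 counts or more in at least 1 library but were left out of the test by its count filter, and 19 were tested. The filter keeps a gene counted in 1 group alone, so the tested genes do not stand for all 53. More of the 53 genes reached 10 counts in the deleted cells, 21, 25, 23 and 21 in Bmi1-deleted libraries and 17, 16, 18 and 15 in control libraries. Over all genes, 16218 to 16408 reached 10 counts in Bmi1-deleted and 15851 to 16781 in control libraries, so the groups overlapped. In the number of these 53 genes they were apart at that limit only. With any count at all the groups overlapped, at 35, 34, 36 and 29 in Bmi1-deleted and 26, 32, 28 and 27 in control libraries. Under a higher limit than 10 counts they overlapped too, at 15, 12, 12 and 13 in Bmi1-deleted and 9, 13, 12 and 12 in control libraries.

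**Figure D2:**
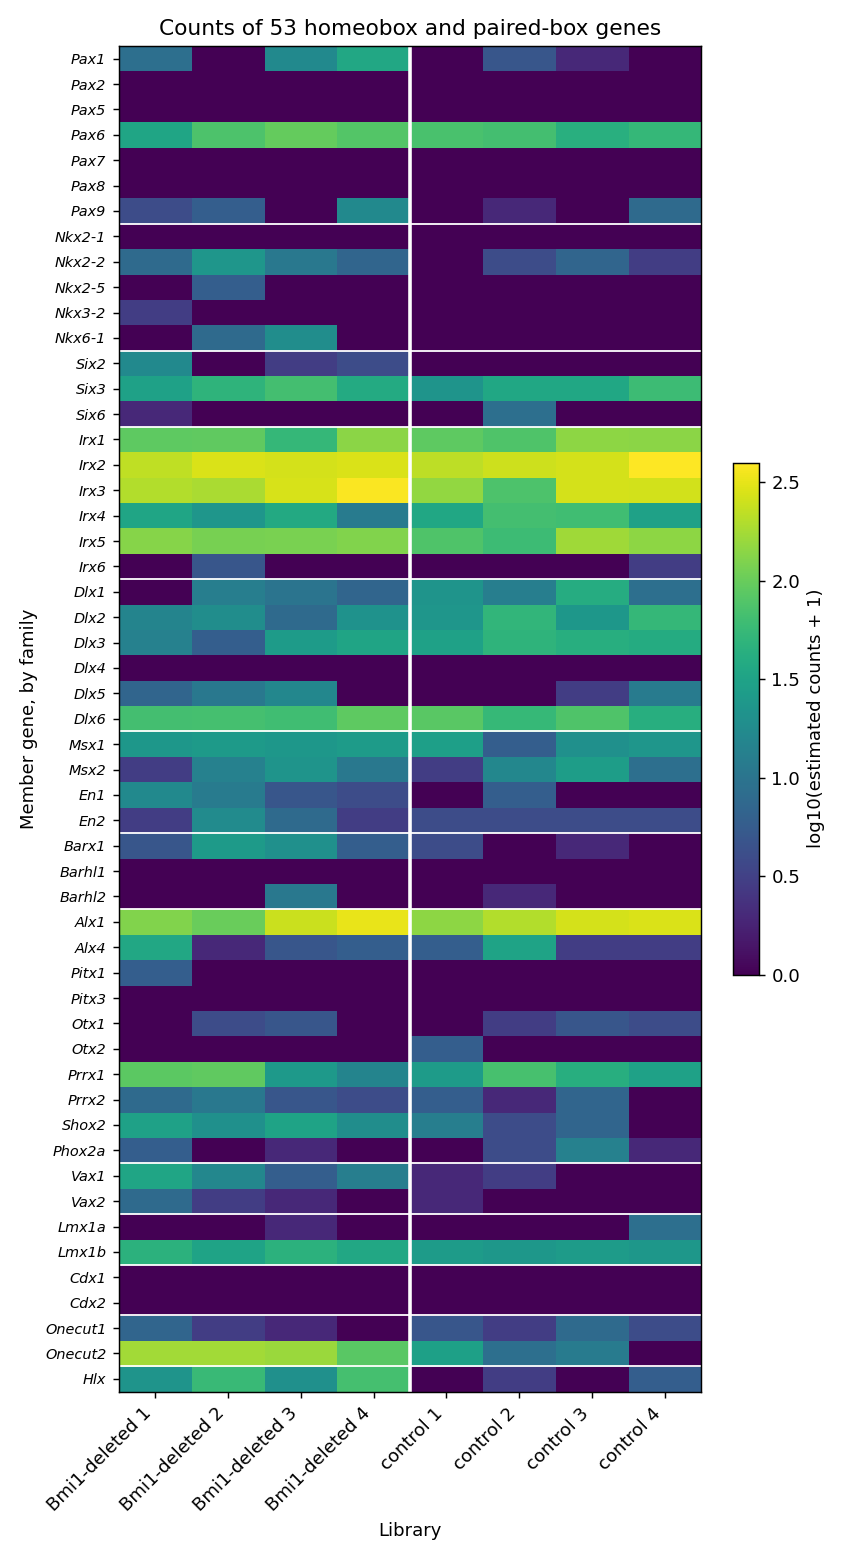
Estimated counts on a log10(count + 1) colour scale for the 53 genes (rows, by family, white lines between families) in the 4 Bmi1-deleted libraries (left) and 4 control libraries (right). Onecut2 and Hlx are brighter in the deleted libraries, Irx1, Irx2, Irx3, Irx5 and Alx1 are bright in all 8, and 10 genes are at 0 throughout.

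By edgeR's quasi-likelihood test 0 of the 19 tested genes were higher and 0 lower at an adjusted p under 0.05, a threshold that 0.0874% of 16011 tested genes passed as higher and 0.00625% as lower. At an unadjusted p under 0.05, 3 were higher (Onecut2, Hlx and Shox2) and 1 lower (Dlx2), where 4.82% of all tested genes were higher and 3.45% lower. The median log2 change of the 19 was 0.17, and that of all tested genes was 0.01. With the replicate number as a block, 2 of the 19 rose, Onecut2 and Hlx, and 0 fell, against 1.71% and 0.706% of all tested genes. DESeq2 called the same 2 genes higher and 0 lower, against 0.687% and 0.3% of all tested genes. With no filter on low counts Onecut2 and Hlx were called again among 43 genes and 0 were lower, against 0.741% and 0.346% of the 34973 genes tested then.

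Onecut2, a cut-homeodomain factor of liver, retina and motor neurons, is also described as a regulator of the pigment gene Mitf. It had more counts than Hlx, the other gene called in some of the fits. It had 173, 174, 162 and 85 counts in Bmi1-deleted libraries and 29, 8, 11 and 0 in control libraries. The lowest Bmi1-deleted library stood well above the highest control, and the 0 in control 4 allows up to 3 counts. Scaled, it averaged 16.0 ± 4.31 CPM in Bmi1-deleted and 1.27 ± 1.30 CPM in control libraries (SD, n = 4). The log2 change was 3.64 (SE 0.72, edgeR adjusted p = 0.116), and with the replicate block it rose by 4.01 (SE 0.56, adjusted p = 0.00252). It also passed without control 1 (adjusted p = 0.0261) or without control 4 (adjusted p = 0.0297). With the block it passed in all 4 fits that each left out 1 pair of libraries (highest adjusted p = 0.048). The gene lies on mouse chromosome 18 (64340020 to 64400987, GENCODE M21, mm10). Its relative Onecut1, a liver and pancreas factor, held 6, 2, 1 and 0 counts in Bmi1-deleted and 4, 2, 7 and 3 in control libraries, too few to compare with Onecut2.

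Hlx, a homeobox factor of the gut and liver mesenchyme, was almost absent from control cells. It had 21, 57, 19 and 67 counts in Bmi1-deleted libraries and 0, 2, 0 and 5 in control libraries. Every Bmi1-deleted library was above every control, with replicates 2 and 4 of the deleted cells higher than 1 and 3. The level was 4.42 ± 2.67 CPM in Bmi1-deleted and 0.193 ± 0.267 CPM in control libraries (SD, n = 4). The log2 change was 4.45 (SE 1.01, edgeR adjusted p = 0.135), and with the replicate block Hlx rose by 4.84 (SE 0.95, adjusted p = 0.0103). The blocked call was lost without the libraries of replicate 2 (adjusted p = 0.118) or replicate 4 (adjusted p = 0.0751). No other gene of GENCODE M21 overlaps Onecut2 or Hlx. Hlx lies on chromosome 1, 184727140 to 184732619.

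Shox2 and Lmx1b, both known from the limb, stood apart between the groups without passing any of the tests across all genes. Shox2, which sets the length of the upper limb and shapes the heart's pacemaker, had 30, 19, 31 and 18 counts in Bmi1-deleted libraries and 12, 3, 6 and 0 in control libraries. It averaged 2.67 ± 0.821 CPM in Bmi1-deleted and 0.557 ± 0.546 CPM in control libraries (log2 change 2.23, SE 0.92, edgeR adjusted p = 0.544, with the block 0.248). Shox2 overlaps Rsrc1 on the other strand, which had 508 to 598 counts in Bmi1-deleted and 402 to 580 in control libraries, and whether reads were counted by strand is not known here. Lmx1b, the LIM-homeobox factor of the dorsal limb, had 46, 31, 46 and 35 counts in Bmi1-deleted and 26, 23, 26 and 23 in control libraries. The control values lay close together and all below the lowest Bmi1-deleted one (4.31 ± 0.977 against 2.63 ± 0.191 CPM, log2 change 0.71, SE 0.45, edgeR adjusted p = 0.761, with the block 0.711). Of the 19 tested genes, 4 did not overlap with higher values in Bmi1-deleted libraries (Onecut2, Hlx, Shox2 and Lmx1b) and 1 with lower values (Dlx2), against 2.79% and 2.39% of all tested genes.

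**Figure D3:**
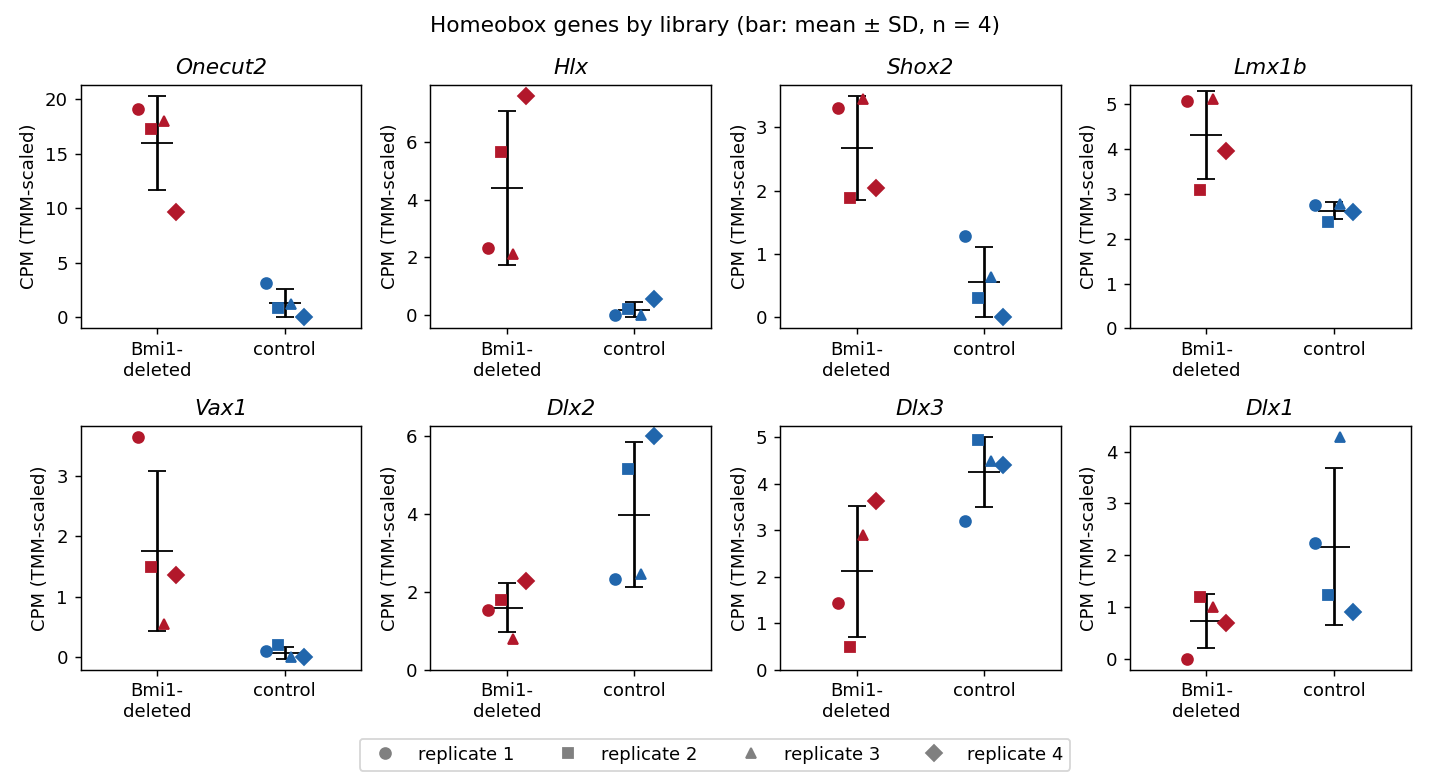
CPM after TMM scaling (vertical axis) in each library for 8 genes, Bmi1-deleted left and control right in each panel; marker shape gives the replicate number and the bar the mean ± SD (n = 4). Onecut2, Hlx, Shox2, Lmx1b and Vax1 do not overlap between groups and are higher in deleted cells, Dlx2 does not overlap and is lower, and Dlx3 and Dlx1 overlap.

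Of the genes too low to be tested, Vax1, Barx1 and Nkx2-2 also had separate groups in CPM, the last 2 by narrow margins. Barx1 was apart by 4 counts in Bmi1-deleted 1 against 3 in control 1. Nkx2-2 had 6 counts in both Bmi1-deleted 4 and control 3 and was apart only after scaling (0.680 against 0.642 CPM). Vax1, a factor of the ventral forebrain and optic stalk, had 33, 15, 5 and 12 counts in Bmi1-deleted libraries and 1, 2, 0 and 0 in control libraries. With 65 and 3 counts in all, the ratio at equal depth was 21.2 (exact 95% interval 6.95 to 106, counting error only), and control values lay at or under the 3 counts that a count of 0 allows. The ratio was 13.8 without Bmi1-deleted 1, which held 33 of the 65 counts, and 47.3 without control 2, which held 2 of the 3. Barx1, known from the stomach wall and the jaw, had 4, 25, 19 and 5 counts in Bmi1-deleted and 3, 0, 1 and 0 in control libraries. Nkx2-2, a factor of the ventral neural tube, had 7, 22, 10 and 6 in Bmi1-deleted and 0, 3, 6 and 2 in control libraries; its antisense gene Nkx2-2os had 6 to 25 counts in Bmi1-deleted and 0 to 16 in control libraries. In a fit with no filter on low counts, none of the 3 passed, and the adjusted p of Vax1 was 0.223. Among the 43 of the 53 genes with at least 1 count, 7 had groups apart with higher and 1 with lower values in the deleted cells. The shares of the 34973 genes with a count were 1.58% and 1.37%. Barx1 and Nkx2-2, with their narrow margins, are among the 7. Mean CPM was higher in Bmi1-deleted libraries for 29 of these 43 and lower for 14, where 50.3% and 49.7% of all genes with a count were higher and lower.

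The other low genes had groups that overlapped or touched. Pax1, of the vertebral precursors, had 8, 0, 16 and 35 counts in Bmi1-deleted libraries and 0, 4, 1 and 0 in control libraries, so 1 deleted library was as low as control. It lies 168 kb from Nkx2-2 on chromosome 2. Six2, which maintains kidney progenitors, had 16, 0, 2 and 3 counts in Bmi1-deleted libraries and Nkx6-1, of beta cells and the ventral neural tube, had 0, 7, 18 and 0, while both were at 0 in all 4 control libraries. En1, known from the midbrain border and the dermis of the back, had 16, 11, 4 and 3 counts in Bmi1-deleted and 0, 5, 0 and 0 in control libraries. Pax9, of teeth and the spine, had 3, 5, 0 and 16 in Bmi1-deleted and 0, 1, 0 and 7 in control libraries. The remaining low genes, Dlx5, En2, Barhl2, Alx4, Prrx2 and Phox2a, overlapped between the groups and held 6 to 45 counts summed over Bmi1-deleted and 1 to 40 over control libraries. Phox2a, of autonomic neurons, was the 1 low gene with fewer counts in deleted cells, 6 in Bmi1-deleted against 17 in control libraries in all. Alx4 and Phox2a overlap the far more abundant Ext2 and Inppl1 on the other strand, so their few counts are uncertain.

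The Dlx genes, homologues of fly Distal-less that pattern jaws, forebrain and skin appendages, had no call in any fit, and their log2 changes did not share a sign. Dlx2 had 14, 18, 7 and 20 counts in Bmi1-deleted libraries and 22, 50, 23 and 53 in control libraries. The groups were apart by a narrow margin, 2.27 CPM in the highest Bmi1-deleted against 2.34 CPM in the lowest control library (log2 change −1.31, SE 0.59, edgeR adjusted p = 0.583, with the block 0.429). Its neighbour Dlx1, 9.4 kb away on chromosome 2, had 0, 12, 9 and 6 counts in Bmi1-deleted and 21, 12, 40 and 8 in control libraries (−1.57, SE 0.96, adjusted p = 0.746). Dlx3, a factor of epidermal and hair differentiation, had 13, 5, 26 and 32 counts in Bmi1-deleted and 30, 48, 42 and 39 in control libraries (−1.01, SE 0.60, adjusted p = 0.736). Both overlapped between the groups. Dlx6 had 66, 67, 62 and 88 counts in Bmi1-deleted and 85, 54, 75 and 42 in control libraries (0.17, SE 0.34, adjusted p = 0.955), and its neighbour Dlx5, 9.2 kb away, was too low to test, with 6, 10, 15 and 0 counts in Bmi1-deleted and 0, 0, 2 and 11 in control libraries. Dlx4 was at 0 throughout. Summed over the 6 genes the family stood at 13.0 ± 2.61 CPM in Bmi1-deleted and 17.6 ± 1.26 CPM in control libraries.

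**Figure D4:**
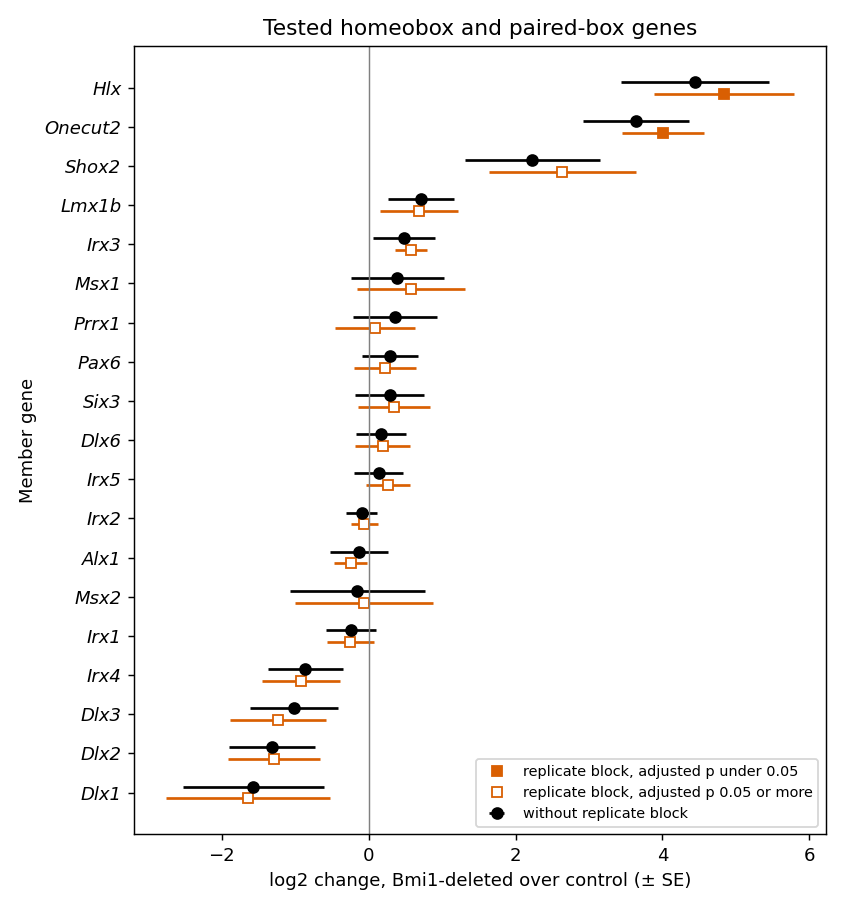
Log2 change of Bmi1-deleted over control with its SE (horizontal axis) for the 19 tested genes, ordered by size, without the replicate block (black circles) and with it (orange squares, filled where the adjusted p is under 0.05). Hlx and Onecut2 lie above 3.5 in both fits and are the only filled squares among the 19, and Dlx1, Dlx2 and Dlx3 lie below −1.

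Irx1, Irx2, Irx3, Irx5 and Alx1 had the highest mean TPM of the 53 genes and did not pass in any of the fits. Per length, in the deposited TPM, Irx2 had 4.65 ± 1.59 in Bmi1-deleted and 7.15 ± 2.08 in control libraries (SD, n = 4). Alx1, a factor of the neural crest of the face, had 3.24 ± 1.53 and Irx1 had 2.43 ± 0.938 TPM in Bmi1-deleted libraries, against 4.36 ± 1.06 and 3.18 ± 0.867 TPM in control libraries. Irx3 and Irx5, which lie 556 kb apart on chromosome 8, had 2.85 ± 0.881 and 1.53 ± 0.213 TPM in Bmi1-deleted and 2.25 ± 0.752 and 1.53 ± 0.45 TPM in control libraries. In Bmi1-deleted libraries the order was Irx2, Alx1, Irx3, Irx1 and Irx5, and neighbours differed by less than the larger of their SDs. In control libraries it was Irx2, Alx1, Irx1, Irx3 and Irx5, and all neighbours but Irx3 and Irx5 differed by more than the larger of their SDs. All 5 genes overlapped between the groups in CPM. TPM of all tested genes ran lower in Bmi1-deleted libraries (median log2(TPM + 1) change −0.14), so lower TPM here is not read as a change of these genes. Iroquois factors pattern the embryo's axes and organs, and 5 of the 6 were tested: the log2 changes of Irx1, Irx2, Irx3 and Irx5 lay between −0.24 and 0.48 (edgeR adjusted p from 0.861 to 0.965). Irx4, a factor of the heart ventricle, had 33, 22, 37 and 11 counts in Bmi1-deleted and 34, 65, 62 and 30 in control libraries (−0.86, SE 0.51, adjusted p = 0.734). Irx6 held 4 counts in 1 Bmi1-deleted library and 2 in 1 control library. In TPM the genes called in some of the fits were low. Onecut2 had 0.265 ± 0.0878 in Bmi1-deleted and 0.0267 ± 0.0274 in control libraries, and Hlx had 0.534 ± 0.281 in Bmi1-deleted and 0.0593 ± 0.0831 in control libraries.

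The other tested genes overlapped between the groups. Pax6, of the eye and pancreas, was the 1 paired-box member tested and had 33, 73, 96 and 79 counts in Bmi1-deleted and 71, 66, 43 and 53 in control libraries (log2 change 0.29, SE 0.38, edgeR adjusted p = 0.92). Prrx1, a marker of limb and skin mesenchyme, had 86, 91, 24 and 14 counts in Bmi1-deleted and 26, 69, 42 and 30 in control libraries (0.36, SE 0.57, adjusted p = 0.936). Its 2 high Bmi1-deleted libraries, replicates 1 and 2, were also the 2 with the highest fibroblast marker score. The control libraries did not share this order, since control 1 had the highest control score (5.45) and the fewest Prrx1 counts (26). Six3, of the forebrain and eye, had 182 counts in Bmi1-deleted and 149 in control libraries in all (0.29, SE 0.47, adjusted p = 0.938). Msx1 and Msx2, of the jaw, teeth and hair follicle, had log2 changes of 0.39 (SE 0.64, adjusted p = 0.938) and −0.16 (SE 0.92, adjusted p = 0.986).

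The silent genes gave no RNA that could be told from 0 in either group. Pax2, Pax5, Pax7 and Pax8, Nkx2-1, Dlx4, Barhl1, Pitx3, Cdx1 and Cdx2 had 0 counts in all 8 libraries, and Nkx3-2 had 2 counts in 1 Bmi1-deleted library. They include the factors of the kidney (Pax2, Pax8), B cells (Pax5), muscle stem cells (Pax7), lung and thyroid (Nkx2-1) and intestine (Cdx1, Cdx2). A count of 0 allows up to 3 counts per library, or 0.289 to 0.338 CPM, so levels below that were not detectable at this depth. The 9 genes near zero were Nkx2-5, Six6, Irx6, Pitx1, Otx1, Otx2, Vax2, Lmx1a and Onecut1. Vax2 had 10 counts in Bmi1-deleted and 1 in control libraries, and Otx2, Six6 and Lmx1a had 0, 1 and 1 in Bmi1-deleted and 5, 8 and 8 in control libraries, each from 1 control library. A silent gene could lie close to one with counts. Dlx4 was at 0 while Dlx3, 15.2 kb away, was tested. Nkx2-1 was at 0, but Pax9, 155 kb away, was itself low, with 16 counts in its highest library and 0 in some.

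Skin fibroblasts are known to express some of these genes, Prrx1 among them, and markers of fibroblasts were measured beside them. All 17 listed markers, among them Col1a1, Col3a1, Dcn and Pdgfra, had counts, and they summed to 8248 to 18408 CPM in Bmi1-deleted and 5182 to 8833 CPM in control libraries. With the replicate block, 7 of the 15 tested markers rose and 0 fell, against 1.71% and 0.706% of all tested genes. Without it 0 passed (smallest edgeR adjusted p = 0.136). At an unadjusted p under 0.05 without the block, 7 were higher and 1 lower, against 4.82% and 3.45% of all tested genes. Their score, the mean log2(CPM + 1), was 6.56, 6.10, 5.54 and 4.94 in Bmi1-deleted and 5.45, 5.41, 4.90 and 4.93 in control libraries (difference 0.61, exact two-sided permutation p = 0.114). Without Bmi1-deleted 4 the difference was 0.89 (exact permutation p = 0.0286, which no split of 7 libraries can go below). With the score as a covariate the log2 changes were 3.18 for Onecut2 (edgeR adjusted p = 0.138), 4.92 for Hlx (adjusted p = 0.0799) and 1.97 for Shox2 (adjusted p = 0.573). With the score and the replicate block together Onecut2 passed (7.20, adjusted p = 0.00169), while 1.04% of all tested genes passed as higher and 0.312% as lower. That fit spends most of the 8 libraries on its terms, and its estimates moved far. Compared with the fit without score or block, Onecut2 went from 3.64 to 7.20 and Shox2 from 2.23 to 5.62. No conclusion about the score is drawn from it. In that fit Hlx did not pass (3.65, adjusted p = 0.366), and Prrx1 stood at −1.47 (adjusted p = 0.536).

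**Figure D5:**
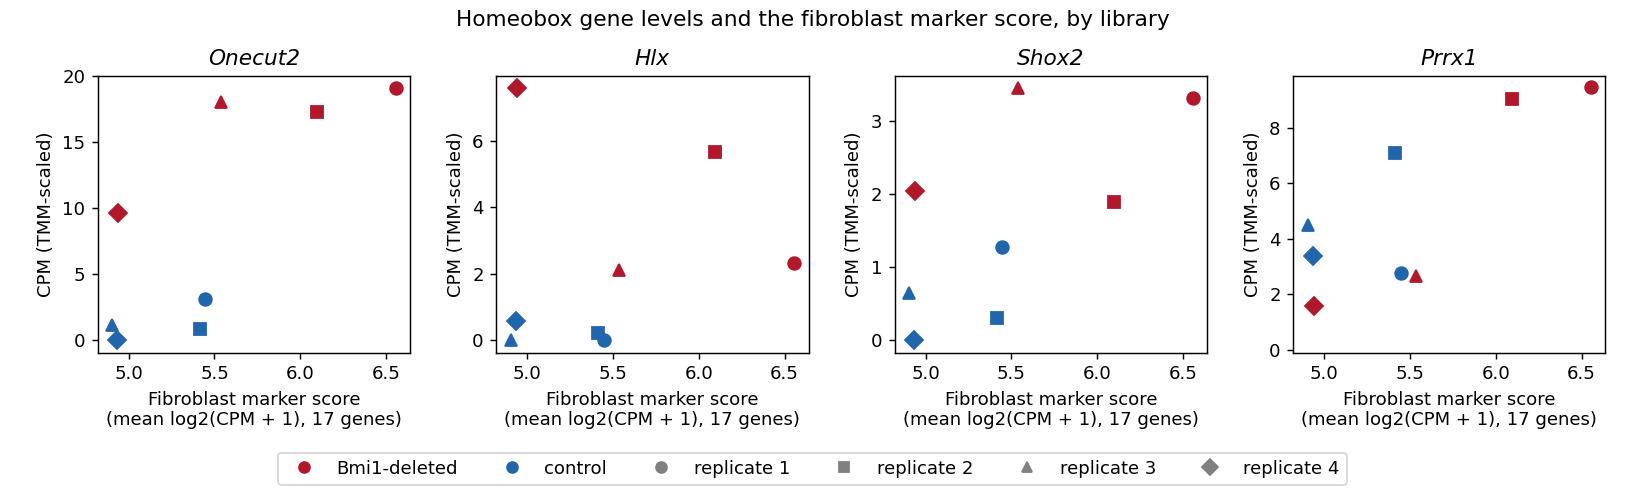
CPM after TMM scaling of Onecut2, Hlx, Shox2 and Prrx1 (vertical axes) against the fibroblast marker score, the mean log2(CPM + 1) of 17 genes (horizontal axes), 1 point per library, Bmi1-deleted in red and control in blue, shape by replicate. Onecut2, Hlx and Shox2 do not overlap between the groups, Prrx1 does, and the scores of the groups overlap.

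Scores of other cell types were set beside these genes too. Schwann cell markers stood at 8.06 ± 0.314 in Bmi1-deleted and 7.60 ± 0.515 in control libraries (exact two-sided permutation p = 0.229), mural cell markers at 3.52 ± 0.631 in Bmi1-deleted and 2.80 ± 0.081 in control libraries (p = 0.114), and immune markers at 2.63 ± 0.255 in Bmi1-deleted and 2.27 ± 0.28 in control libraries (p = 0.114). With the block, 5 of 9 Schwann cell markers rose and 0 fell, against 1.71% and 0.706% of all tested genes. Without it 0 passed (smallest edgeR adjusted p = 0.116). Keratinocyte, dermal papilla, endothelial and muscle scores had p from 0.4 to 0.886, with the muscle factors Myod1 and Myf5 at 0 in all libraries. With the block, 2 of 12 keratinocyte and 2 of 4 tested dermal papilla markers rose and 0 fell. Without it 0 of either list passed by edgeR. At an unadjusted edgeR p under 0.05 without the block, 2 keratinocyte markers were higher and 2 lower. Of the dermal papilla markers 2 were higher and 1 lower, against 4.82% and 3.45% of all tested genes. Among endothelial, mural, immune and muscle markers 0 passed with the block. Pigment cell markers stood at 8.08 ± 0.492 in Bmi1-deleted and 8.82 ± 0.267 in control libraries (exact permutation p = 0.0571, where the smallest that 70 assignments can give is 0.0286). What part fibroblasts or these other cell types have in the homeobox results was not tested beyond the fits with the fibroblast score.

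RNAs of proteins that work with homeodomain factors passed neither in the fit without the block nor in the fit with it. Of 20 listed partner names (Eya and Dach coactivators of the sine oculis factors, Tle corepressors, Ldb adaptors of LIM-homeobox proteins, Hipk kinases and others) 19 were matched and 17 tested, of which 0 passed by edgeR, with or without the block, and 0 had an unadjusted p under 0.05 (median log2 change 0.07). Eya1, the partner with the smallest p and named for it after the values were seen, had 459, 522, 928 and 1050 counts in Bmi1-deleted and 997, 1124, 1309 and 1077 in control libraries (−0.58, SE 0.27, adjusted p = 0.633, with the block 0.0854). Of 66 other homeobox gene names outside the Hox, TALE and LIM classes (1 of them, Vax2os, an antisense RNA) 64 were matched, 30 were silent and 13 tested. None of the 13 passed with or without the block. At an unadjusted p under 0.05, 2 were higher and 0 lower, against 4.82% and 3.45% of all tested genes. Nkx6-2 is described here, picked out by its values. Nkx6-2, of oligodendrocytes, had 27, 46, 32 and 35 in Bmi1-deleted and 0, 0, 0 and 17 in control libraries (edgeR adjusted p = 0.549, with the block 0.0805). Pax3, the paired-box factor that melanocytes need, also named after its values were seen, was abundant in both groups, with 354 ± 93.8 CPM in Bmi1-deleted and 437 ± 44.5 CPM in control libraries (−0.30, SE 0.17, adjusted p = 0.707).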

How the data were processed

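Of the 2 deposited tables, one holds the authors' estimated counts per gene as whole numbers with no scaling; the submitters' processing notes name Salmon 1.2.1 and mm10. The other holds log2 values deposited by the authors; undoing the logarithm and subtracting 1 gives TPM that sum to 1000000 per library, of which the predicted gene Gm23935 took 73.7% to 85.6%. For annotation, strand setting and rounding the labels are silent. Per the labels, 1 ng of total RNA was amplified in 2 rounds of 15 PCR cycles, with no molecular identifiers mentioned, so intervals and floors cover counting error only.

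Symbols, positions and overlaps came from GENCODE M21. Counts were filtered with filterByExpr, scaled by TMM and tested with the quasi-likelihood F test of edgeR 4.0.16 (robust, two-sided, R 4.3.3, Benjamini-Hochberg over 16011 genes). Each SE is the log2 change divided by the root of F. Alternatives used DESeq2 1.42.0, limma 3.58.1, other scalings and filters, left-out libraries, a replicate block and a marker score. After centring by genotype, libraries with the same number had correlations across genes of 0.124 to 0.186, every pair above 0.1. Other-number pairs had −0.218 to 0.217, and 4 of 8 libraries best matched their own number. Pairing by number is thus not established, and no label says what a shared number means. A pair here is only 2 libraries with the same number, and calls with the block rest on that grouping. The block is printed where it changed a call, and also for some genes whose call it did not change. On data simulated for this comparison with 15242 genes, edgeR recovered 65 of 93 genes changed 4-fold, 30 of 93 changed 2-fold, and called 4 of 15056 unchanged genes. Marker scores were compared by exact permutation. Genes given with values were every member with a call or with groups apart, the 12 with the smallest p and the 5 with the highest TPM; the others are given by counts. Members, lists and tests were chosen with earlier results of these data known. The values of 1 gene of the list of other homeobox genes are not reported here.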

Additional observations from a re-analysis of the deposited data

Results flagged for a closer look

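Values of 4 libraries lay apart from the other 3 of their group by more than Dixon's 95% critical share of the group's range, among 53 groups whose highest library held at least 10 counts; chance flags about 1 in 20. Alx4 stood at 3.86 CPM in Bmi1-deleted 1 and at 3.19 CPM in control 2, each far above the rest of its group. Barhl2 stood at 1.11 CPM in Bmi1-deleted 3 and at 0 in the other Bmi1-deleted libraries. Msx1 stood at 2.95 CPM in Bmi1-deleted 4 and at 2.48 to 2.56 CPM in the other Bmi1-deleted libraries.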

How the results depend on the processing

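Over all genes 15 passed by edgeR. This became 380 with no filter on low counts, 386 with the replicate block, 158 by DESeq2, 156 in replicates 1 and 2 alone, 28 with the fibroblast score as covariate, 216 with score and block, and 4 by limma on log2(TPM + 1), where the median of all genes shifted to −0.14. Leaving out 1 library gave 8 (without control 2) to 45 (without control 1), and leaving out 1 pair under the block, an alternative chosen after seeing the data, gave 351, 113, 238 and 189 without pairs 1 to 4. Of the 53 genes 0 passed as higher by edgeR; 2 did with no filter, with the block and by DESeq2, and 1 in replicates 1 and 2 alone and with score and block. Without 1 library the number was 0 to 1 (1 without control 1 or control 4), and without 1 pair under the block 1 to 2. No gene of the 53 passed as lower in any of these fits. The silent genes numbered 11, against 20 with a limit of 9 counts and 26 with a mean TPM under 0.1 in both groups. The fibroblast score difference ran from 0.35 to 0.89 without 1 library, and it passed without Bmi1-deleted 4.

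Onecut2 passed in 11 of 22 alternatives and Hlx in 5 of 22, both higher in all of them. Signs turned for genes that passed in none. With the score and block, Dlx1 stood at 0.38, Six3 at −0.39, Prrx1 at −1.47, Irx5 at −0.32, Alx1 at 0.024 and Msx2 at 0.17. With the score alone, Irx1 stood at 0.089, Irx2 at 0.13, Prrx1 at −0.94, Alx1 at 0.45 and Msx2 at 0.70. Replicates 1 and 2 alone gave −0.39 for Pax6, 0.15 for Irx1, −0.066 for Dlx6 and 0.11 for Irx2, and replicates 3 and 4 alone −0.90 for Prrx1, −0.35 for Irx5 and 0.057 for Alx1. On log2(TPM + 1) Prrx1 stood at −0.094 and Dlx6 at −0.045. Without 1 library the log2 change ran from −0.21 to 0.14 for Irx2, −0.080 to 0.40 for Irx5, −0.51 to 0.10 for Alx1 and −0.65 to 0.48 for Msx2. Under the block without 1 pair it reached −0.12 for Pax6, 0.10 for Irx1, −0.47 and −0.035 for Prrx1, −0.10 for Dlx6, 0.082 for Irx2, and 0.0019 and 0.028 for Msx2. The cause of these moves was not tested. Depth limits the low genes, since a count of 0 allows up to 3 counts in a library. The ratio of Vax1 counts without 1 library, also tried after seeing the data, ran from 13.8 to 47.3.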
